A study of Mus musculus with 16 samples.

Results

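Carns1, Tsc22d1, Tle1 and Abcg2 are 4 of the 55536 annotated genes counted in mouse CD8+ T cells, and together they carry 46 of the 141862 annotated transcripts. They were picked because the share of their transcripts, that is, the count of each transcript divided by the summed count of its gene, differed widely between Control gRNA and Tardbp gRNA libraries. Among the 8382 genes whose shares could be fitted, ordered by their widest difference of mean share, Carns1 stood at rank 1, Tsc22d1 at 3, Tle1 at 4 and Abcg2 at 12. Among those next to them in that order were Pde5a at 0.644, Gpr162 at 0.582 and Dyrk1a at 0.550, against 0.887, 0.643, 0.637 and 0.550 for the 4 genes. All share, level and Psi values of the 4 genes between the groups come from the contrast that chose them, so they are given as a description with no test.

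The protein made from Tardbp, TDP-43, is a nuclear RNA-binding protein that prefers UG-rich stretches and affects which exons are joined, which introns are kept and where transcripts end. A gene can make several transcripts by starting at different promoters, by joining different exons or by ending at different sites, and a changed share need not go with a changed total. Carns1 encodes carnosine synthase 1, which joins beta-alanine and histidine with the use of ATP. Tsc22d1 encodes leucine zipper proteins first described as induced by TGF-beta, and its long and short forms share the zipper at the C-terminal end. Tle1 encodes a Groucho corepressor recruited by factors such as TCF, RUNX and HES proteins, and Abcg2 encodes a transporter of the plasma membrane that exports drugs, porphyrins and urate.

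The cells were OT-I CD8+ T cells, which recognise a peptide of ovalbumin, taken from Rag-deficient donors on a C57BL/6J background, and mice of both sexes were used in the study. Cas9 ribonucleoprotein with either a control guide (Control gRNA, 8 libraries) or a Tardbp guide (Tardbp gRNA, 8 libraries) was electroporated into them. The cells were then transferred to C57BL/6J recipients, and all recipients of both groups received the peptide with antibodies that stimulate CD134 (OX40) and CD137 (41BB). Cells were sorted for CD8 and CD45 markers before RNA was prepared, 4 days after stimulation by the labels and somewhat earlier by the paper's methods. The paper's results also mention stimulation of the purified cells, and whether the sequenced cells received it is not clear from them. Each library is thus a bulk population of edited and any unedited cells and not a clone. The study describes the cells as purified from individual recipient mice, while the labels tie no library to a recipient, and adjusted p-values measure the spread between these libraries. In bulk RNA, fewer cells of a type and less RNA per cell cannot be told apart.

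The libraries held 29714709 to 48164083 read pairs and summed estimated counts of 56016533 to 94801105, or 1.89 to 2.02 counts a pair. Tardbp RNA was 192 ± 13.3 CPM (counts scaled to 1e6 per library by TMM) in the controls and 135 ± 11.3 CPM in Tardbp gRNA (SD, n = 8 each). The groups did not overlap (log2 fold change -0.51, SE 0.06, adjusted p = 8.07e-07, edgeR). By immunoblot of pooled cells, the paper reports that cells given the Tardbp guide did not make the protein, so the RNA level does not measure the protein left. The 8 CD8 T cell markers summed to 6635 to 7932 CPM in Control gRNA and to 9311 to 12174 CPM in Tardbp gRNA. All 8 were called higher, where 23.5% of all 16650 tested genes were called higher. Summed markers of myeloid cells ran from 24.9 to 44.8 CPM in Control gRNA and from 31.7 to 90.6 CPM in Tardbp gRNA, with medians of 27.6 and 50.6 CPM, and 2 of the 6 were called higher. Medians in Control gRNA and Tardbp gRNA were 7.73 and 10.4 CPM for the summed markers of B cells, 0.448 and 0.548 CPM for CD4 T cells and 1.27 and 2.37 CPM for NK cells. The part of these markers in the values of the 4 genes was not tested. RNA concentration before library preparation, for which no unit was given, ran from 34.9 to 197.1 for the Control gRNA libraries but only from 10.1 to 24.0 for the Tardbp gRNA libraries. Because these ranges do not overlap, the guide and the RNA input cannot be told apart.

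The sequences below are among those that separate the transcripts of each gene. They come from GENCODE M21 transcripts and, for the promoters of Abcg2, from RefSeq, both on GRCm38. Carns1-204 keeps an intron of 241 bases that Carns1-201 removes, at chr19:4171171-4171411 on the minus strand. It is shown in capitals between 15 bases of each neighbouring exon, and it begins with GT and ends with AG. Carns1-201 (chr19:4164324-4175479, 3968 bases) and Carns1-204 (chr19:4164687-4175454, 3762 bases) also differ at both annotated ends. Further exonic bases between the ends, not shown here, differ too, so the intron is not all that separates them.
Carns1-204: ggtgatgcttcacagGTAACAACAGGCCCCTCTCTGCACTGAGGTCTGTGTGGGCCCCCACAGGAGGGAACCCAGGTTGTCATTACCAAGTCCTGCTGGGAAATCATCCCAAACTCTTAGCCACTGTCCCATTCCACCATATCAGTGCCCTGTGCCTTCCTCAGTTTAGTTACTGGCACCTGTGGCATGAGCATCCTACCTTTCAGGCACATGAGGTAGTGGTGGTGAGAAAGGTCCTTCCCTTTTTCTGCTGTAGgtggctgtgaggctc
Tle1-202 and Tle1-203 encode proteins from equally long coding sequences and differ inside them by an exon of 17 bases, at chr4:72157463-72157479 in Tle1-202 and at chr4:72152881-72152897 in Tle1-203, both on the minus strand. The exons are shown in capitals between 20 bases of the exons on either side, and 7 of their 17 bases are the same.
Tle1-202: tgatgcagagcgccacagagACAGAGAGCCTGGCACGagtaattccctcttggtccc
Tle1-203: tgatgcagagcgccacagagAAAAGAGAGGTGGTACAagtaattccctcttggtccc
Tle1-205 reads on past the same upstream exon into the intron and stops there. The end of its coding sequence lies at chr4:72158187-72158249, and the capitals mark the 26 bases past the exon, with the stop codon last.
Tle1-205: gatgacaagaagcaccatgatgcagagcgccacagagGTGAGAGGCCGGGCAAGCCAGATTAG
Tsc22d1-201 and Tsc22d1-202 start far apart and code for different N-terminal ends. The 125 bases of the first coding exon of Tsc22d1-201, at chr14:76504717-76504841 on the plus strand, are shown whole beside the first 125 of the 2927 coding bases of the first exon of Tsc22d1-202, at chr14:76416083-76416207, with the start codons in capitals.
Tsc22d1-201: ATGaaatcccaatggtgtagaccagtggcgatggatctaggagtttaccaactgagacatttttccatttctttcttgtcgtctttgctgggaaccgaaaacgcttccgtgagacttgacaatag
Tsc22d1-202: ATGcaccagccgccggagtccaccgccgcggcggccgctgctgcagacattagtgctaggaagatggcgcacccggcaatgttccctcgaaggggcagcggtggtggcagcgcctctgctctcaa
Abcg2-201 and Abcg2-202 share 1 coding sequence of 1971 bases and start at different promoters, of which the 250 bases before each RefSeq start are shown, at chr6:58596422-58596671 and chr6:58640296-58640545 on the plus strand. The annotated start of Abcg2-202 lies 18 bases past the RefSeq start.
Abcg2-201: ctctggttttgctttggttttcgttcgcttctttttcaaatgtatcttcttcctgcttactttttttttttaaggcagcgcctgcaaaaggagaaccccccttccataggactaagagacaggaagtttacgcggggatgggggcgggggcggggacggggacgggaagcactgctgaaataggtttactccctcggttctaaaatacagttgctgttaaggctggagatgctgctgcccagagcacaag
Abcg2-202: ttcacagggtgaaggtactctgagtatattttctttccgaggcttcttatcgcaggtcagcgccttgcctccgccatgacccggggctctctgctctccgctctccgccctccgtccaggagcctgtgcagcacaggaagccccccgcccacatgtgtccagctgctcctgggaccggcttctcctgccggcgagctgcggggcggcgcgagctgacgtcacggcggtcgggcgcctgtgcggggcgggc
The promoter of Abcg2-201 held 10 CG pairs and lay at percentile 42.7 of 32851 RefSeq promoters of the same length by G and C content. That of Abcg2-202 held 23 CG pairs and lay at percentile 87.1, and the median number of CG pairs was 6.

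**Figure D1:**
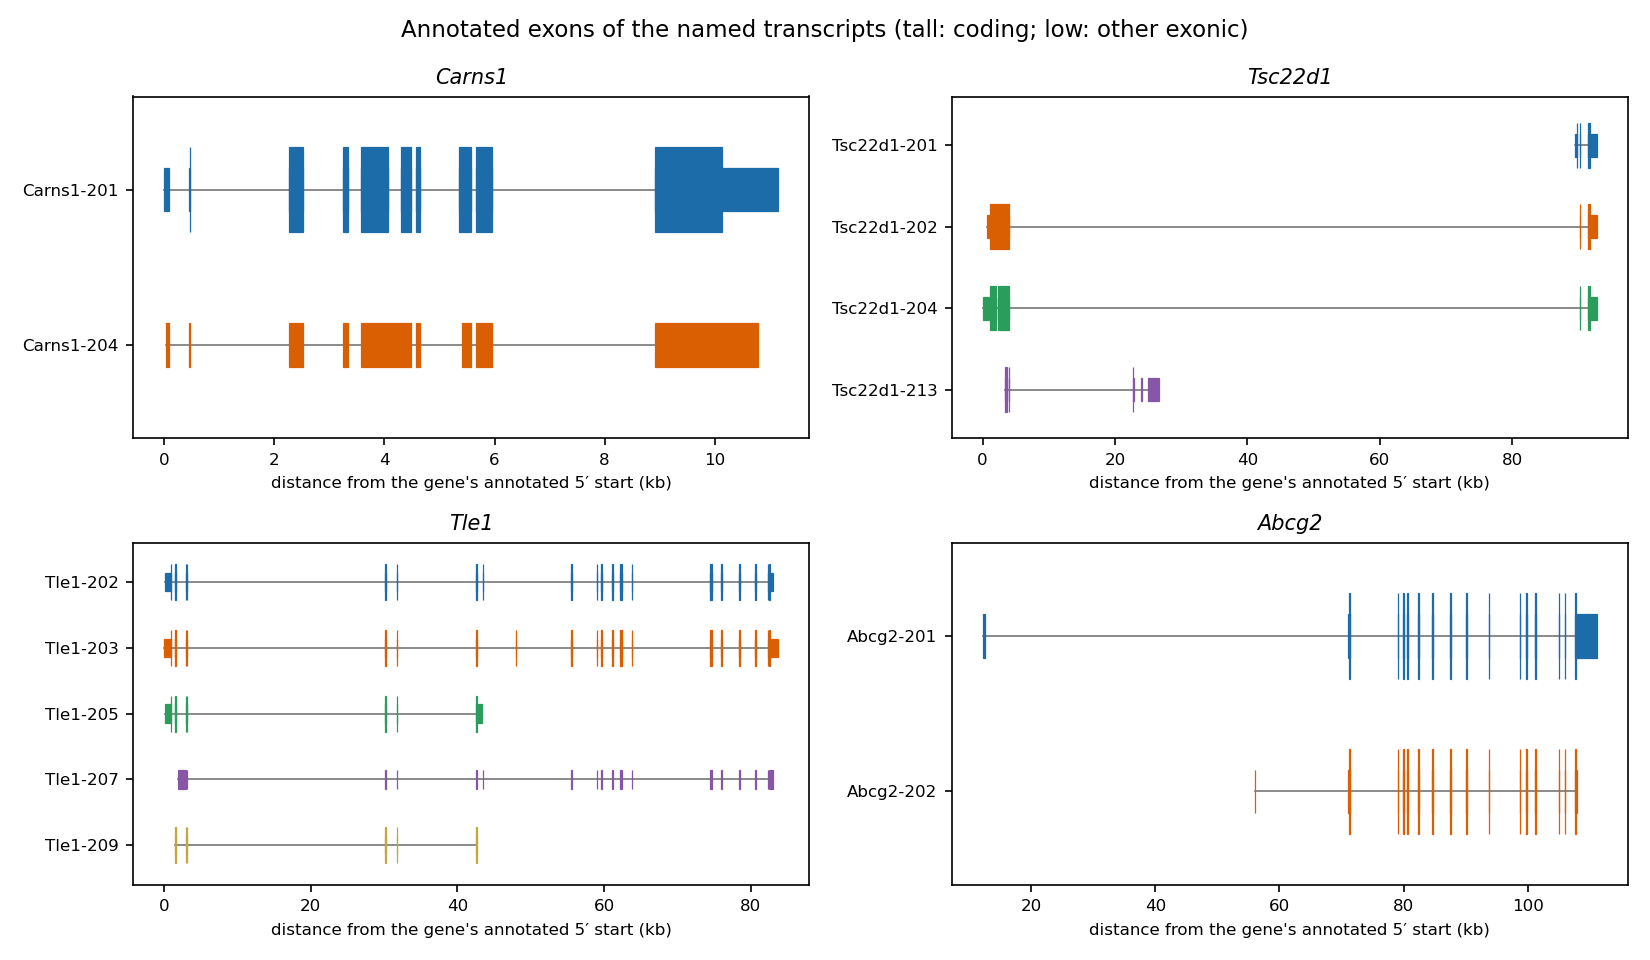
Exons of the 13 transcripts that held a mean share of 0.05 or more in either group, drawn against distance from the annotated 5′ start of each gene in kb. Tall boxes are coding, low boxes are other exonic sequence and lines are introns. Tsc22d1-201 begins far downstream of Tsc22d1-202 and Tsc22d1-204, Tle1-205 and Tle1-209 stop in the middle of the gene, and Abcg2-202 begins downstream of Abcg2-201.

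Of the 46 transcripts, 13 held a mean share of at least 0.05 in 1 of the groups and are named: 2 of 7 in Carns1, 4 of 16 in Tsc22d1, 5 of 10 in Tle1 and 2 of 13 in Abcg2. The other 33 had mean shares of at most 0.0343, and 12 of the 46 were listed at 0 in all 16 libraries. Only 10 of the 46 passed the filter on low counts and entered the fit of shares, and a transcript that passed through the group where it is high had to differ. Tle1-202 was not among them, because it was listed at 0 in 1 Control gRNA library. Of the 10, 6 carried the call by share that chose these genes (adjusted p under 0.05 and a difference of share over 0.1, limma), against 0.628% of 32819 transcripts and, for genes, 1.8% of the 8382 genes with 1 or more such transcripts. Nothing is read from that count. Shares of 3 of the 10 (Carns1-201, Carns1-204 and Tsc22d1-201) did not overlap between the groups, as did not those of 1.63% of all transcripts fitted.

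Carns1 (ENSMUSG00000075289.5, chr19:4164324-4175479, minus strand) was counted almost wholly as its coding transcript in Control gRNA and almost wholly as a transcript with a kept intron in Tardbp gRNA. Carns1-201, with 10 exons and 2841 coding bases, held shares of 1, 0.832, 0.961, 0.633, 0.996, 0.953, 0.975 and 0.995 in Control gRNA libraries 1 to 8. In Tardbp gRNA it was listed at 0 in 7 libraries and held 0.247 in library 4. Carns1-204, annotated as a retained intron transcript with no coding sequence, held at most 0.362 in Control gRNA, with a median of 0.00955, and was listed at 0 in 4 of those libraries. In the 8 Tardbp gRNA libraries its shares were 0.982, 0.992, 0.998, 0.740, 0.991, 0.736, 0.998 and 0.997. The groups did not overlap for either transcript. The mean share of Carns1-201 was 0.918 ± 0.127 in Control gRNA against 0.0308 ± 0.0872 in Tardbp gRNA, and that of Carns1-204 was 0.0736 ± 0.129 and 0.929 ± 0.118 (SD, n = 8 each). The libraries with a mixture were few, namely Control gRNA library 4 at 0.362 of Carns1-204 and library 2 at 0.164, and Tardbp gRNA libraries 4 and 6. In Tardbp gRNA library 6 the other transcript was Carns1-206, at 0.261.

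In counts, Carns1-201 lay between 133 and 369 in Control gRNA, and Carns1-204 lay between 286 and 511 in Tardbp gRNA. On the CPM scale Carns1-201 was 2.50 ± 0.804 in Control gRNA and 0.170 ± 0.482 in Tardbp gRNA, while Carns1-204 was 0.223 ± 0.363 and 4.92 ± 0.587 (SD, n = 8 each). The gene total ran from 1.84 over a median of 2.64 to 4.25 CPM in Control gRNA and from 4.18 over 5.20 to 7.80 CPM in Tardbp gRNA, so the highest Control gRNA library exceeded the lowest Tardbp gRNA library only slightly. The log2 fold change of the total was 0.97 (SE 0.17). The 16.9% of all 16650 tested genes whose CPM did not overlap between the groups does not include Carns1, nor any of the other 3 genes. In Tardbp gRNA library 6 a further 181 counts sat on Carns1-206, a short transcript of the last exons that is annotated as protein coding.

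The coding share, the part of the count of a gene on transcripts annotated as protein coding, was 0.918 ± 0.127 in Control gRNA and 0.0634 ± 0.118 in Tardbp gRNA for Carns1 (SD, n = 8 each), a difference of -0.855. For the other 3 genes the difference of coding share was 0.0976 for Tsc22d1, 0.0243 for Tle1 and -0.0308 for Abcg2, and 5.91% of 8014 genes differed by over 0.1 in size. The value for Abcg2 rested on Tardbp gRNA library 8 and was -0.00646 without it, and that of Tle1 was 0.0534 without Tardbp gRNA library 2. With counts divided by annotated length, the difference was 0.232 for Tsc22d1 and turned to -0.00923 for Tle1. Of the 4 genes, Carns1 had the widest difference of coding share.

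Carns1 shares its locus with other annotated genes. AC109138.8, a processed transcript on the same strand, spans most of Carns1 and continues upstream, and 4 of its 16 exons are identical to exons of Carns1-201 and 2 to exons of Carns1-204. It covers 1189 of the 3968 bases of Carns1-201, 1130 of the 3762 bases of Carns1-204 and 0 bases of the kept intron. Its level was 19.7 ± 4.32 CPM in Control gRNA and 27.8 ± 5.67 CPM in Tardbp gRNA (log2 fold change 0.50, SE 0.14, adjusted p = 0.00753). Gm17552, annotated antisense to Carns1, was 0.330 ± 0.169 and 0.766 ± 0.282 CPM (log2 fold change 1.21, SE 0.37, adjusted p = 0.0121), and Rps6kb2, a ribosomal S6 kinase gene within 5 kb on the same strand, was 172 ± 36.6 and 283 ± 76.0 CPM (log2 fold change 0.72, SE 0.15, adjusted p = 0.000796). How reads of shared exons were divided among these genes, and whether strand was used, was not given in the sources used here, so the total and the shares of Carns1 are uncertain to that extent.

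**Figure D2:**
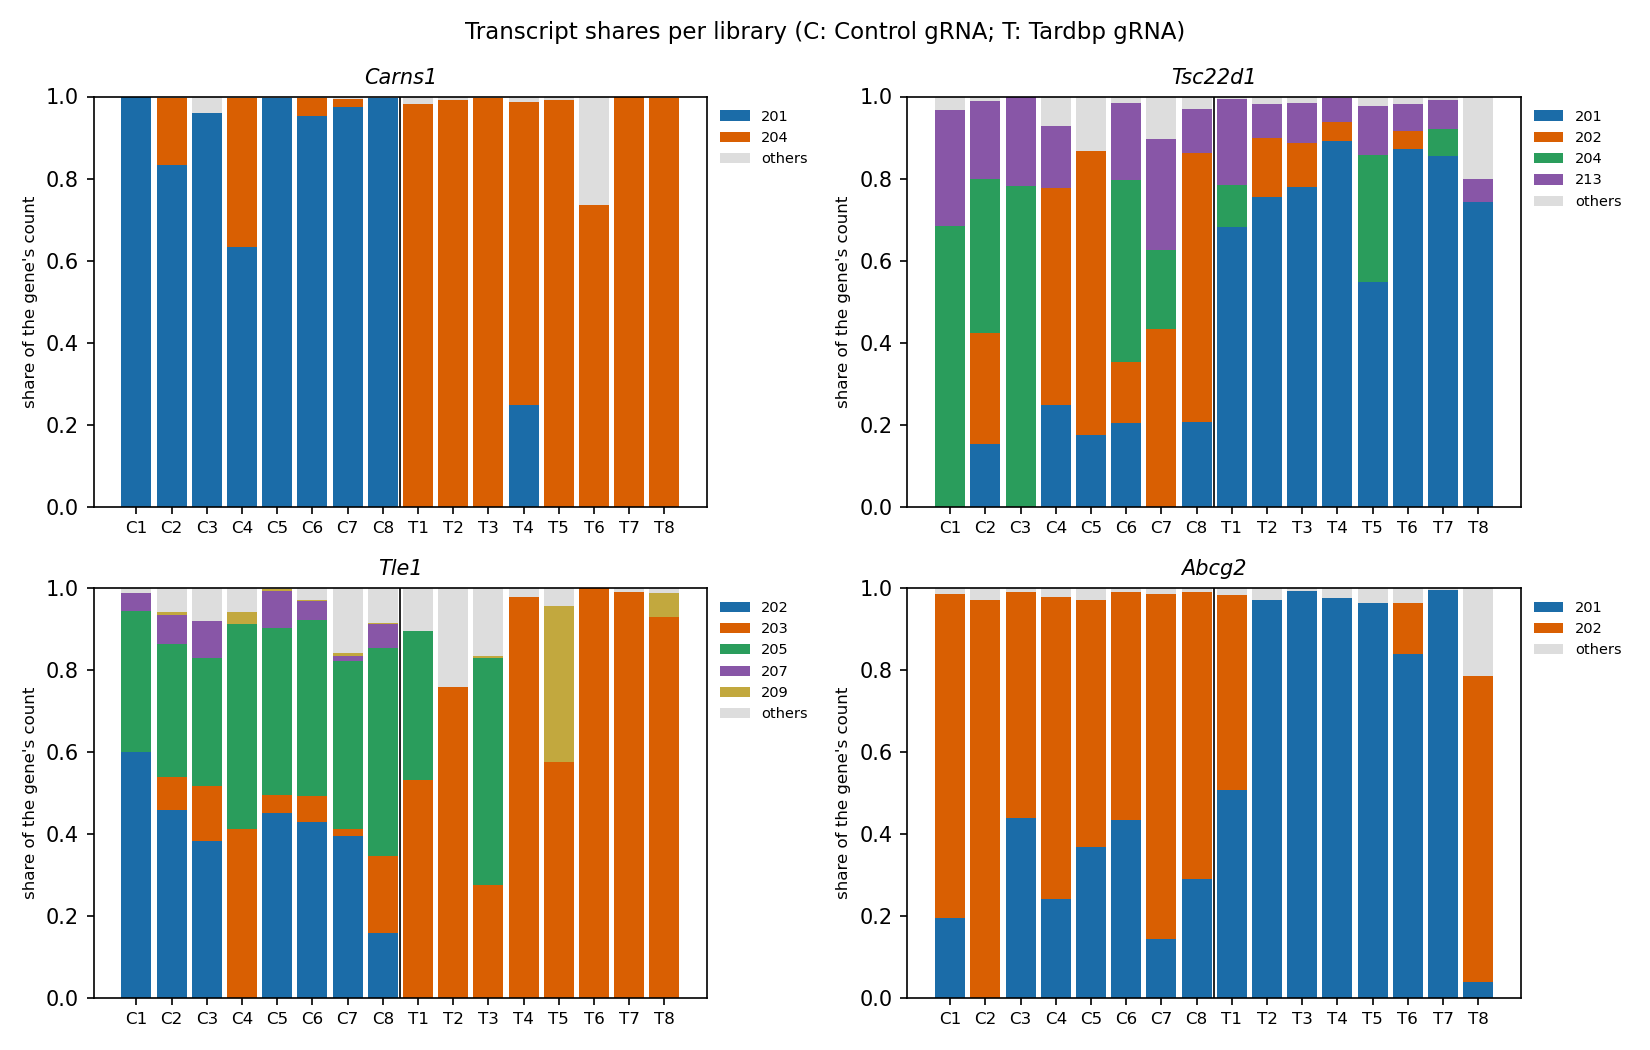
Share of each named transcript in the count of its gene, as stacked bars for the 8 Control gRNA (C1 to C8) and 8 Tardbp gRNA (T1 to T8) libraries, with all other transcripts of the gene in pale grey. Carns1-201 fills most of the bar in Control gRNA and Carns1-204 in Tardbp gRNA, Tsc22d1-201 fills 0.547 to 0.892 of the bar in Tardbp gRNA, and the bars of Tle1 and Abcg2 vary among the Tardbp gRNA libraries, with library 8 of Abcg2 resembling the Control gRNA bars.

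Tsc22d1 (ENSMUSG00000022010.19, chr14:76414961-76507765, plus strand) was counted mainly on transcripts with the distal first exons in Control gRNA and mainly on the short Tsc22d1-201 in Tardbp gRNA. Tsc22d1-201, with 429 coding bases, held shares of 0 in Control gRNA libraries 1, 3 and 7 and of 0.153, 0.248, 0.176, 0.203 and 0.206 in libraries 2, 4, 5, 6 and 8. In Tardbp gRNA libraries 1 to 8 it held 0.683, 0.755, 0.778, 0.892, 0.547, 0.873, 0.855 and 0.743. All 8 lay above all Control gRNA values, with means of 0.123 ± 0.106 and 0.766 ± 0.114 (SD, n = 8 each).

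The long forms were divided unevenly among libraries. Tsc22d1-202 (3231 coding bases) ranged from 0 to 0.692 within Control gRNA, with a median of 0.352, and from 0 to 0.145 in Tardbp gRNA, with a median of 0.0212. Tsc22d1-204 (2985 coding bases) ranged from 0 to 0.782 and from 0 to 0.309, and the groups overlapped for both transcripts. In Control gRNA libraries 1 and 3 only Tsc22d1-204 of these long forms had counts, and in libraries 4, 5 and 8 only Tsc22d1-202, so in these 5 the estimate placed all long-form counts on 1 transcript of the pair. Grouped by first exon, the 7 transcripts that start in the distal region chr14:76414961-76419009 held 0.828 ± 0.119 of the count in Control gRNA, from 0.685 to 1, and 0.198 ± 0.124 in Tardbp gRNA, from 0.0566 to 0.430. The 2 transcripts that start at chr14:76504478-76504841 held 0.139 ± 0.103 and 0.769 ± 0.113. These grouped shares were tighter within Control gRNA than those of Tsc22d1-202 and Tsc22d1-204 (SD 0.278 and 0.313), and they did not overlap between the groups. How often grouped shares do not overlap over all genes was not computed, so nothing is read from that separation. Tsc22d1-213, annotated as a target of nonsense-mediated decay, held 0.176 ± 0.0918 and 0.0955 ± 0.0509. Shares of counts give more weight to Tsc22d1-202 (4818 bases) and Tsc22d1-204 (4999 bases) than to Tsc22d1-201 (1762 bases). Per annotated length, mean shares in Control gRNA were 0.188 for Tsc22d1-202, 0.211 for Tsc22d1-204, 0.243 for Tsc22d1-213 and 0.188 for Tsc22d1-201. In Tardbp gRNA they were 0.0167, 0.0252, 0.0809 and 0.814.

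Levels showed which of these forms made up the change in total. The gene total was 0.853, 1.58 and 3.01 CPM (lowest, median, highest) in Control gRNA and 2.49, 5.37 and 7.44 CPM in Tardbp gRNA, a log2 fold change of 1.68 (SE 0.25). The highest Control gRNA library and the lowest Tardbp gRNA library overlapped. Tsc22d1-201 was 0.240 ± 0.256 CPM in Control gRNA and 4.20 ± 1.82 CPM in Tardbp gRNA, or 0 to 59 counts against 140 to 643. Tsc22d1-202 was 0.682 ± 0.634 and 0.230 ± 0.287 CPM, Tsc22d1-204 was 0.375 ± 0.358 and 0.281 ± 0.532 CPM, and Tsc22d1-213 was 0.271 ± 0.163 and 0.458 ± 0.147 CPM. The higher total in Tardbp gRNA therefore sat on the short form, and the levels of both long forms overlapped between the groups.

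Tle1 (ENSMUSG00000008305.18, chr4:72117142-72200919, minus strand) had a lower total in Tardbp gRNA, and its counts there were listed mainly on Tle1-203. The total was 3.19, 6.09 and 9.35 CPM (lowest, median, highest) in Control gRNA and 0.919, 1.35 and 3.23 CPM in Tardbp gRNA, with only Tardbp gRNA library 3, the highest of its group, reaching the lowest Control gRNA library. The log2 fold change was -2.05 (SE 0.26). In counts this was 252 to 799 against 66 to 258, so shares in Tardbp gRNA rest on few counts.

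Tle1-202 (20 exons, 2310 coding bases) held shares of 0.600, 0.457, 0.382, 0, 0.450, 0.429, 0.395 and 0.159 in Control gRNA and was listed at 0 in all 8 Tardbp gRNA libraries. Tle1-203, with 2310 coding bases as well, held shares of 0, 0.0808, 0.134, 0.413, 0.0455, 0.0638, 0.0175 and 0.187 in Control gRNA and of 0.530, 0.758, 0.275, 0.978, 0.576, 1, 0.990 and 0.929 in Tardbp gRNA. The 2 groups overlapped for Tle1-203 through Control gRNA library 4 and Tardbp gRNA library 3, with means of 0.118 ± 0.134 and 0.755 ± 0.269 (SD, n = 8 each). Tle1-205, whose 600 coding bases lack all exons that follow the intronic end, held 0.312 to 0.506 in Control gRNA, and was listed at 0 in 6 Tardbp gRNA libraries, at 0.365 in library 1 and at 0.554 in library 3. Its means were 0.404 ± 0.0742 and 0.115 ± 0.219. Tle1-207, a retained intron transcript, held 0.0520 ± 0.0330 in Control gRNA and 0 in all Tardbp gRNA libraries, and Tle1-209 reached 0.379 in Tardbp gRNA library 5 on 25 counts and at most 0.0588 elsewhere.

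In levels, Tle1-203 was 0.601 ± 0.486 CPM in Control gRNA and 1.03 ± 0.293 CPM in Tardbp gRNA, so its level differed far less than its share. Tle1-202 was 2.39 ± 1.30 CPM in Control gRNA and listed at 0 in Tardbp gRNA, and Tle1-205 was 2.54 ± 0.934 and 0.288 ± 0.633 CPM, so these 2 transcripts made up most of the difference in the total. By last exon, the 2 transcripts that end in the region chr4:72157580-72158417 held 0.410 ± 0.0789 of the count in Control gRNA and 0.170 ± 0.227 in Tardbp gRNA. Of these, Tle1-205 runs on into the intron, while Tle1-209 ends inside the exon before it and held 0.00648 and 0.0552 of the count. Those that run to the end of the gene at chr4:72117142-72118391 held 0.581 ± 0.0795 and 0.794 ± 0.223. These groups overlapped.

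Abcg2 (ENSMUSG00000029802.13, chr6:58584523-58695676, plus strand) was listed mainly on Abcg2-202, from the downstream promoter, in Control gRNA and mainly on Abcg2-201, from the upstream promoter, in 7 of the 8 Tardbp gRNA libraries. Abcg2-202 held shares of 0.789, 0.970, 0.551, 0.738, 0.601, 0.555, 0.840 and 0.699 in Control gRNA. In Tardbp gRNA it was listed at 0 in libraries 2, 3, 4, 5 and 7, and held 0.474, 0.124 and 0.746 in libraries 1, 6 and 8. Library 8 lay within the Control gRNA values, and the groups overlapped through it. The means were 0.718 ± 0.148 and 0.168 ± 0.286 (SD, n = 8 each), a difference of -0.550, or -0.632 without library 8.

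Abcg2-201 held 0.264 ± 0.151 of the count in Control gRNA, from 0 to 0.438, and 0.785 ± 0.344 in Tardbp gRNA, from 0.0383 in library 8 to 0.994. Because its annotated length of 5717 bases far exceeds the 2178 bases of Abcg2-202, the share of counts weights it more than a share of molecules would, and per annotated length its mean share was 0.122 ± 0.0776 and 0.637 ± 0.336. Abcg2-201 was 1.85 ± 1.13 CPM in Control gRNA and 3.82 ± 1.76 CPM in Tardbp gRNA, and Abcg2-202 was 4.72 ± 1.47 and 0.726 ± 1.19 CPM. The total differed less than its parts, at 4.07, 6.31 and 10.2 CPM (lowest, median, highest) in Control gRNA and 3.69, 4.77 and 5.57 CPM in Tardbp gRNA, with overlap (log2 fold change -0.50, SE 0.15). Since both transcripts code for the same protein, the listed difference lies in the first exon, which is not translated, and in the length of the last exon.

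Abcg2 is also strongly expressed by red cell precursors, so their markers were summed. The 7 markers were between 0.442 and 17.5 CPM in Control gRNA and between 9.02 and 182 CPM in Tardbp gRNA. Their medians were 8.18 and 33.4 CPM, and no marker was at 0 in all libraries. All 4 that could be tested were called higher, against 23.5% of all tested genes. Tardbp gRNA libraries 4 and 1 were highest, at 182 and 148 CPM, and held Abcg2-202 shares of 0 and 0.474, while libraries 5 and 8 were lowest, at 9.02 and 10.4 CPM, and held 0 and 0.746. The part of these markers in the Abcg2 values was not tested.

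**Figure D3:**
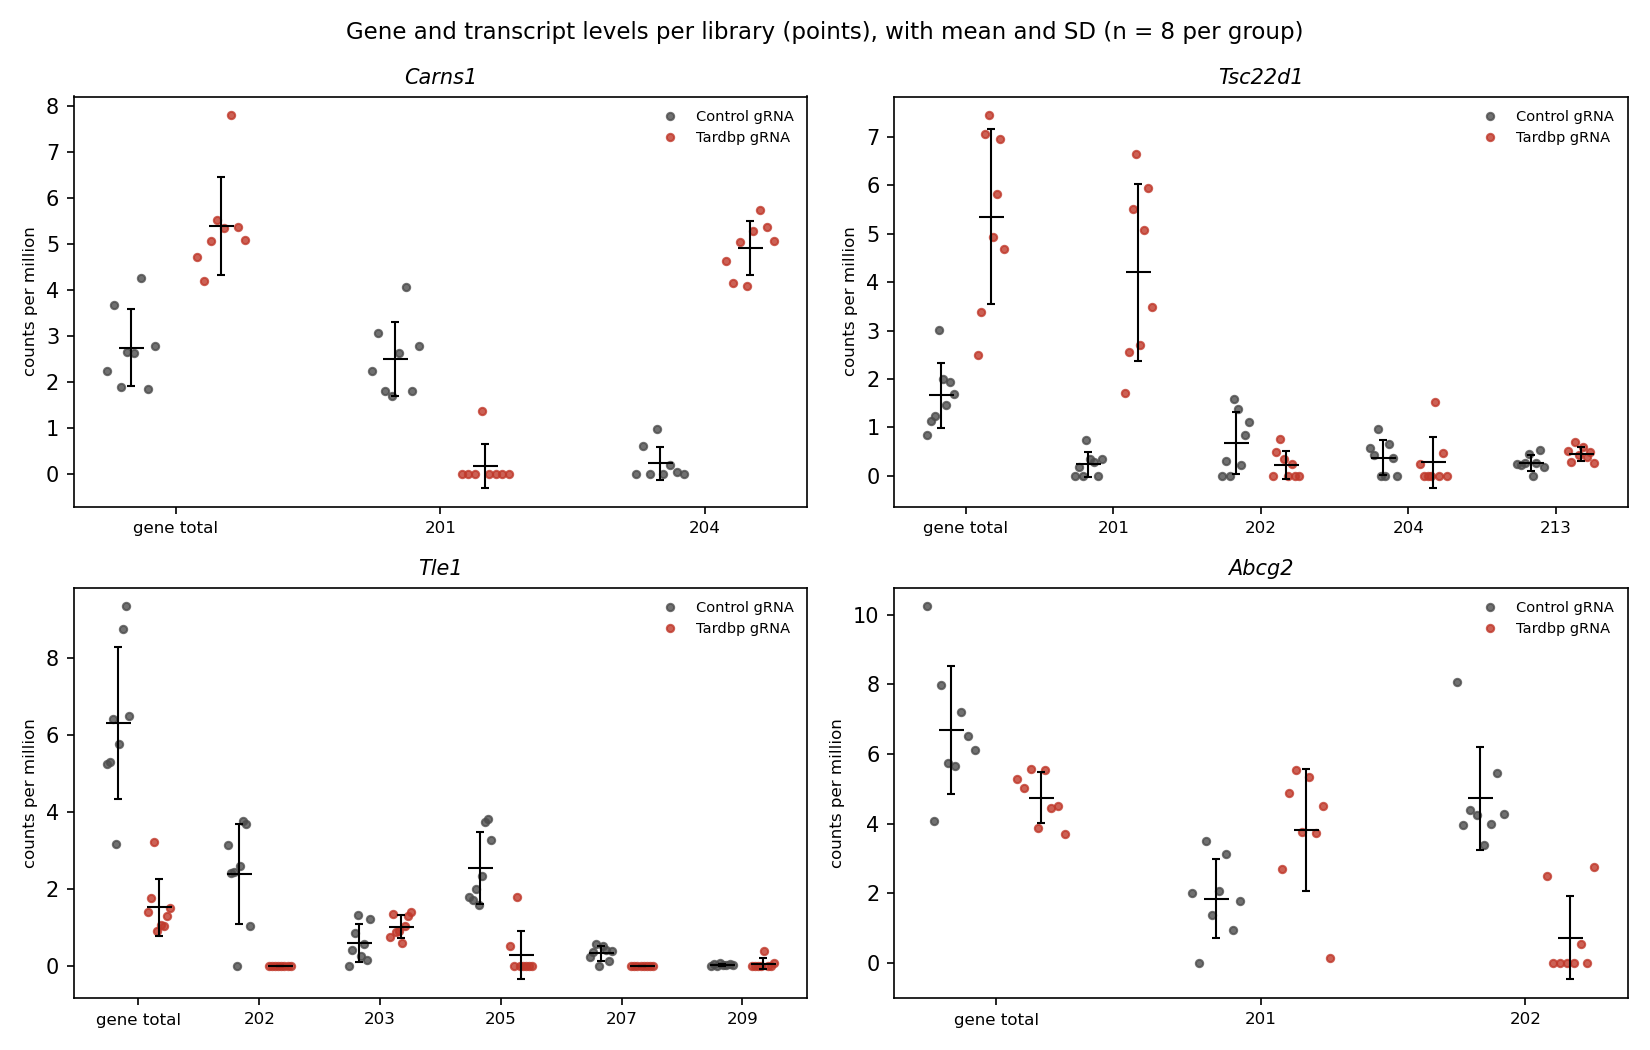
Gene total and named transcripts of the 4 genes in CPM, scaled by TMM, with a point per library, the mean as a bar and the SD as the error (n = 8 in each group). Carns1-204 and Tsc22d1-201 stand at 4.92 and 4.20 CPM in Tardbp gRNA against 0.223 and 0.240 CPM in Control gRNA, Tle1-202 is at 0 in all Tardbp gRNA libraries and Tle1-205 in 6 of them, and the Abcg2 totals overlap.

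The values of Psi deposited by the authors are given for each exon segment (node), with 1 value per group and no spread. For core exons Psi was read as the part of transcripts that include the node. For start and end nodes it was read as the use of that start or end, and not as inclusion. The Tle1 start node at chr4:72199982-72200152, for example, lies in transcripts that held 0.938 and 0.935 of the count, while its Psi was 0.0353 and 0.0705. The table names its groups A and B only, and A was read as Control gRNA and B as Tardbp gRNA from the study's description, so every direction of Psi given here rests on that reading. Over all 125520 nodes, 4.7% differed by over 0.1 in size between the groups. The table held 4 nodes of Carns1, 10 of Tsc22d1, 24 of Tle1 and 17 of Abcg2, and differences over 0.1 were found in 0, 2, 2 and 1 of them. For Carns1, the 4 nodes are core exons, with Psi of 0.860 to 0.918 in both groups. The exons on either side of the kept intron had Psi of 0.862 and 0.918 (chr19:4171412-4171899) and of 0.872 and 0.879 (chr19:4170996-4171170) in Control gRNA and Tardbp gRNA. As both transcripts hold these exons, their Psi does not bear on the intron.

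The widest difference among the 4 genes was at the first exon of Abcg2-202 (chr6:58640564-58640627), where Psi was 0.616 in Control gRNA but 0.245 in Tardbp gRNA. The share of the transcripts that start there was lower in Tardbp gRNA as well, at 0.731 ± 0.151 and 0.208 ± 0.343. The end of Abcg2 differed less. The distal part of the last exon (chr6:58692512-58695676), which only Abcg2-201 holds, had Psi values of 0.0844 and 0.102 in the 2 groups, while the share of Abcg2-201 was 0.264 and 0.785. The 14 core exons of Abcg2 all had lower Psi in Tardbp gRNA, with differences of -0.0268 to -0.00111.

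For Tle1 the Psi of the ends and starts were not ordered as the shares. The part of the last exon that only Tle1-203 holds (chr4:72117142-72117804) had Psi of 0.133 and 0.143 in Control gRNA and Tardbp gRNA. The start segment that only Tle1-203 holds (chr4:72200863-72200919) had 0.274 and 0.304, against shares of 0.118 and 0.755. The segment at the start of Tle1-202 (chr4:72200855-72200857) had 0.0379 and 0.221 while Tle1-202 was listed at 0 in all Tardbp gRNA libraries, and the segment at the start of Tle1-205 (chr4:72200858-72200862) had 0.723 and 0.545. All 13 core exons of Tle1 had lower Psi in Tardbp gRNA, with differences of -0.0715 to -0.0034. No Psi of either 17-base exon was used here.

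For Tsc22d1 the nodes over 0.1 were neighbouring parts of the first exon of Tsc22d1-201. The 52 bases at its 5′ end (chr14:76504478-76504529) had 0.312 and 0.208, and the 312 bases that follow (chr14:76504530-76504841) had 0.692 and 0.793 in Control gRNA and Tardbp gRNA. The exon of 49 bases common to long and short forms (chr14:76505249-76505297) had 0.864 and 0.942. These values compare starts within the proximal region and not that region with the distal start.

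**Figure D4:**
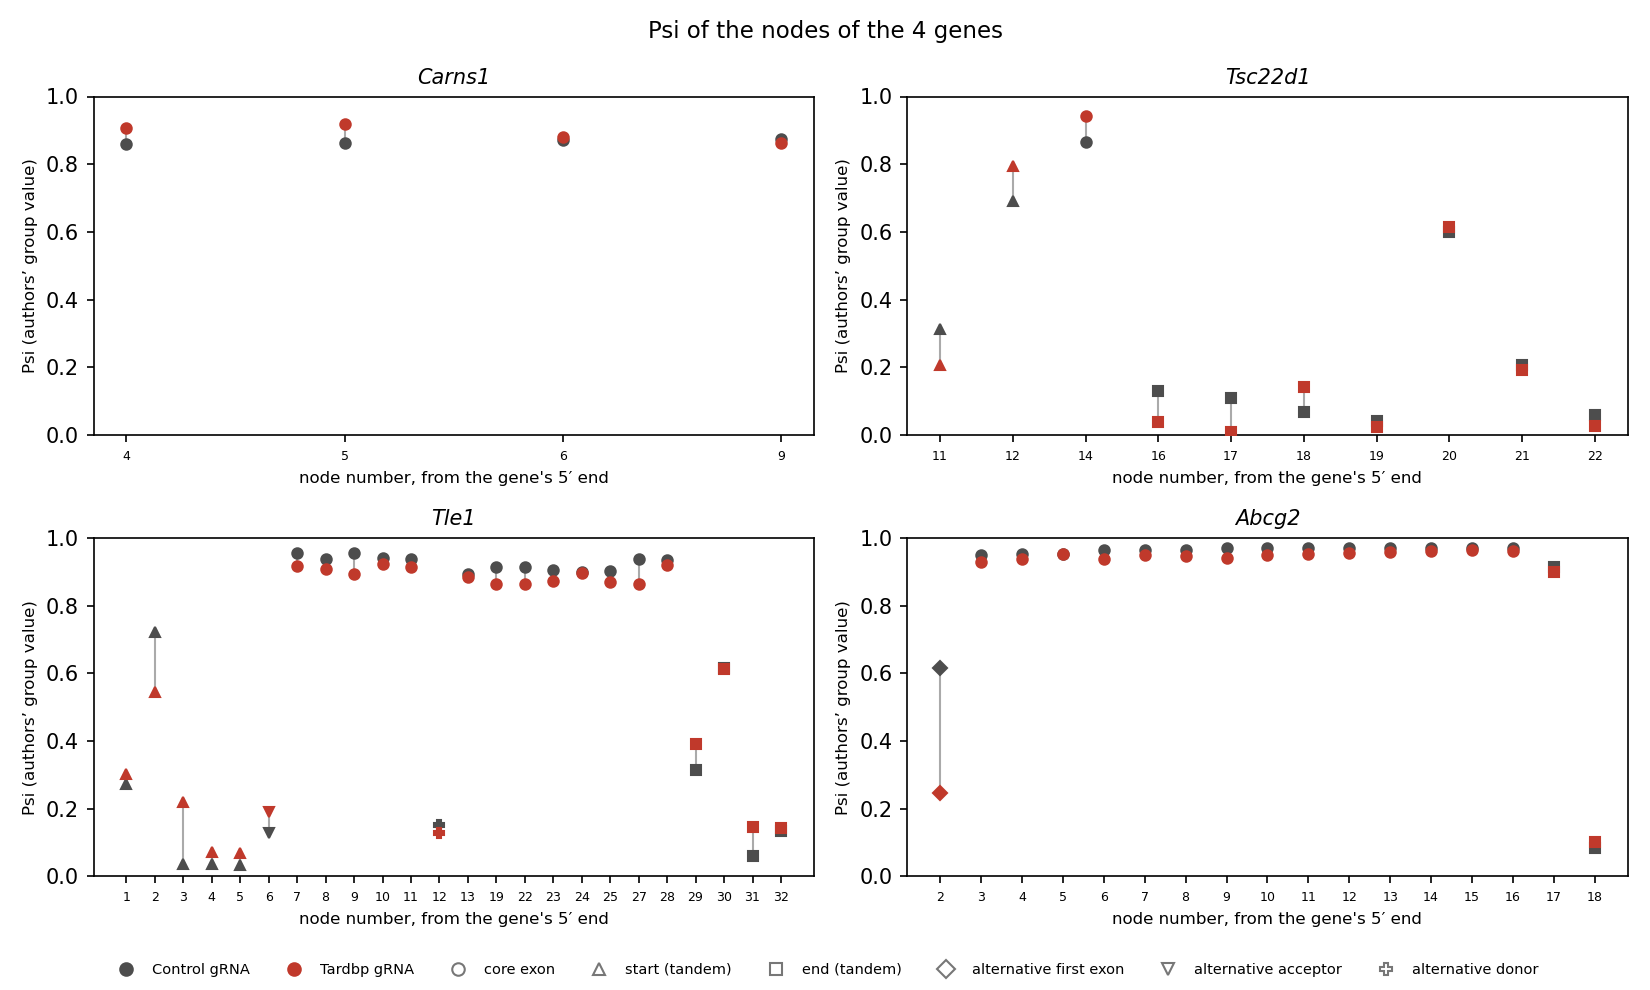
Psi of every node of the 4 genes in the order of the node numbers, as the authors' value for group A, read as Control gRNA (grey), and group B, read as Tardbp gRNA (red), with the kind of node shown by the symbol. Core exons lie at 0.860 or above in both groups, and the widest gap is at the alternative first exon of Abcg2, from 0.616 to 0.245.

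The shares also varied within a group. Over all 32819 transcripts the median range of the share over the 8 Control gRNA libraries was 0.0539, and 8.40% of them ranged over more than 0.5. Among the 10 transcripts of the 4 genes in the fit, the range in Control gRNA was 0.194 for Tle1-205 to 0.782 for Tsc22d1-204, at percentiles 73.0 to 97.3 of all transcripts, and in Tardbp gRNA it was 0.145 for Tsc22d1-202 to 0.956 for Abcg2-201. A transcript listed at 0 in 1 Control gRNA library and above 0.2 in another was seen in 6.06% of all transcripts fitted, which were not matched for level. Tsc22d1-202 had this pattern, and its range of 0.692 in Control gRNA lay at percentile 96.0. Tle1-202 had it too, but was not in the fit. The 4 genes lay at percentiles 37.6 to 42.3 of mean level among tested genes.

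Within Tardbp gRNA, the Tardbp RNA level of each library can be set against the share, since the choice of genes did not use that relation. This level need not rank the libraries by the protein left. The correlation of Tardbp CPM with the share of Carns1-204 was r = -0.13 (rho = -0.29), with that of Tsc22d1-201 r = -0.08 (rho = -0.12), with that of Tle1-203 r = 0.54 (rho = 0.31) and with that of Abcg2-201 r = -0.14 (rho = -0.26), over 8 libraries each. None passed the exact permutation test, two-sided, with p of 0.748, 0.847, 0.164 and 0.676 for r and of 0.501, 0.793, 0.462 and 0.536 for rho, and adjusted over the 4 relations p was 0.847, 0.847, 0.654 and 0.847 for r and 0.715, 0.793, 0.715 and 0.715 for rho. Without the 2 libraries farthest from the median Tardbp level, r was -0.02, -0.08, -0.22 and -0.02. The value for Tle1-203 turned to -0.26 without library 3 alone, which had the lowest Tardbp level, the highest Tle1 total and the lowest share of Tle1-203. Tardbp ranged only from 110 to 147 CPM over these libraries.

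Transcript shares of paralogs of Tsc22d1, Tle1 and Abcg2 were tested in the same fit. Cndp2, a dipeptidase that splits carnosine and is no paralog of Carns1, was tested with them. Of the 37 fitted transcripts of these 9 genes, 0 were called by share (limma), 6 had an unadjusted p under 0.05, and the widest difference was 0.0952. Tle4-201 (0.986 and 0.968), Tle4-203 (0.0140 and 0.0321) and Tsc22d4-206 (0.0155 and 0.0241) passed adjusted p under 0.05 but lay below the limit on size. By gene level (edgeR), 23.5% of all 16650 genes were called higher in Tardbp gRNA and 23.3% lower. Tle4, a Groucho corepressor like Tle1, rose from 10.9 ± 1.40 to 18.2 ± 1.75 CPM (log2 fold change 0.74, SE 0.08, adjusted p = 1.18e-06) and lay above all Control gRNA libraries in 8 of 8. Tle3 was 46.4 ± 6.11 and 47.9 ± 5.95 CPM (adjusted p = 0.702), Aes, which lacks the WD40 repeats of the long TLE proteins, was 114 ± 23.1 and 145 ± 42.9 CPM (adjusted p = 0.0780), and Tle6 was 0.577 ± 0.239 and 0.270 ± 0.183 CPM (adjusted p = 0.0813). Tle2, at 27 counts or fewer, was not tested. Tsc22d3 (GILZ, a glucocorticoid-induced zipper protein) rose from 29.0 ± 5.92 to 52.9 ± 19.1 CPM (log2 fold change 0.86, SE 0.18, adjusted p = 0.000819), while Tsc22d2 was 7.57 ± 1.93 and 9.33 ± 1.99 CPM (adjusted p = 0.132) and Tsc22d4 was 167 ± 9.57 and 180 ± 11 CPM (adjusted p = 0.0501). Abcg1, which exports sterols, rose from 9.31 ± 1.72 to 21.4 ± 2.74 CPM (log2 fold change 1.20, SE 0.11, adjusted p = 1.42e-07), and Abcg3 was 6.73 ± 1.24 and 8.0 ± 1.16 CPM (adjusted p = 0.102). Of the dipeptidases that split carnosine and related peptides, Cndp2 was 121 ± 6.04 and 123 ± 8.34 CPM (adjusted p = 0.759) and Cndp1 was listed at 0 in all libraries. Some of these calls depended on the library or the tool: Aes and Tsc22d2 were called without Control gRNA library 2 (adjusted p = 0.0230 and 0.0393), Tsc22d4 without Tardbp gRNA library 2 (adjusted p = 0.0231), Tsc22d4 and Tle6 with DESeq2 (adjusted p = 0.0464 and 0.0468), and Tsc22d4 with RLE scaling or the replicate number as a block (adjusted p = 0.0498 and 0.0367, edgeR).

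The other genes of each pathway were taken from lists, with the 4 genes left out. Of the carnosine list, 14 of 19 genes could be tested, and 2 rose and 5 fell, with a median log2 fold change of -0.23 against 0.05 over all tested genes. Slc15a2, a peptide transporter, rose by 1.09 on the log2 scale (SE 0.35, adjusted p = 0.0152) and Csad, a decarboxylase of taurine synthesis, by 0.44 (SE 0.11, adjusted p = 0.00406). Gatm, which makes the precursor of creatine, fell by 0.92 (SE 0.15, adjusted p = 5.26e-05) and Slc15a3, a lysosomal peptide and histidine transporter, by 0.89 (SE 0.17, adjusted p = 0.000294). Slc15a2 was the least firm of these, at -0.23 with RNA concentration in the fit (adjusted p = 0.842).

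Of the TSC22 and TGF-beta list all 17 genes were tested, and 7 rose and 3 fell, with a median log2 fold change of 0.19. Beside Tsc22d3, the widest changes were of Smad4, the common partner of receptor-driven SMAD proteins (log2 fold change 0.65, SE 0.11, adjusted p = 8.61e-05), Smad7, an inhibitor of the receptors (0.56, SE 0.10, adjusted p = 9.17e-05), and Ski, a corepressor of SMAD proteins (0.48, SE 0.11, adjusted p = 0.00165). The 3 that fell were Tgfb1, Tgfbr1 and Tgfbr2, the ligand and its receptors, by 0.23, 0.34 and 0.31 on the log2 scale.

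Of the Groucho list 17 of 18 genes were tested, and 4 rose and 3 fell, with a median of 0.05, equal to that of all genes. Beside Tle4, Hes6, a HES family factor, rose from 43.4 ± 3.01 to 69.3 ± 7.53 CPM (log2 fold change 0.67, SE 0.06, adjusted p = 2.22e-07) and Tcf7, a partner of TLE proteins in naive and memory T cells, from 170 ± 30.5 to 264 ± 25.3 CPM (0.64, SE 0.09, adjusted p = 1.52e-05). Prdm1 (Blimp-1), a transcriptional repressor of effector lymphocytes, fell from 13.98 ± 3.52 to 6.97 ± 3.01 CPM (adjusted p = 0.000937) and lay below all Control gRNA libraries in 7 of 8.

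Of the list of ABC and haem transporters 17 of 18 genes were tested, and 2 rose and 7 fell, with a median of -0.25. Abcc1 (MRP1), which exports glutathione conjugates, fell from 40.3 ± 6.07 to 23.6 ± 2.99 CPM (log2 fold change -0.77, SE 0.10, adjusted p = 3.27e-06). Abcb10, a mitochondrial transporter needed for haem synthesis, fell by 0.73 (SE 0.09, adjusted p = 5.05e-06), and Flvcr1, a haem exporter, by 0.61 (SE 0.10, adjusted p = 9.48e-05). With RNA concentration in the fit, the counts that rose and fell were 0 and 3 in the carnosine list, 2 and 1 in the TGF-beta list, 3 and 1 in the Groucho list and 2 and 4 in the transporter list, and Csad, Tsc22d3, Smad4, Ski, Prdm1 and Flvcr1 were no longer called (adjusted p of up to 0.234).

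**Figure D5:**
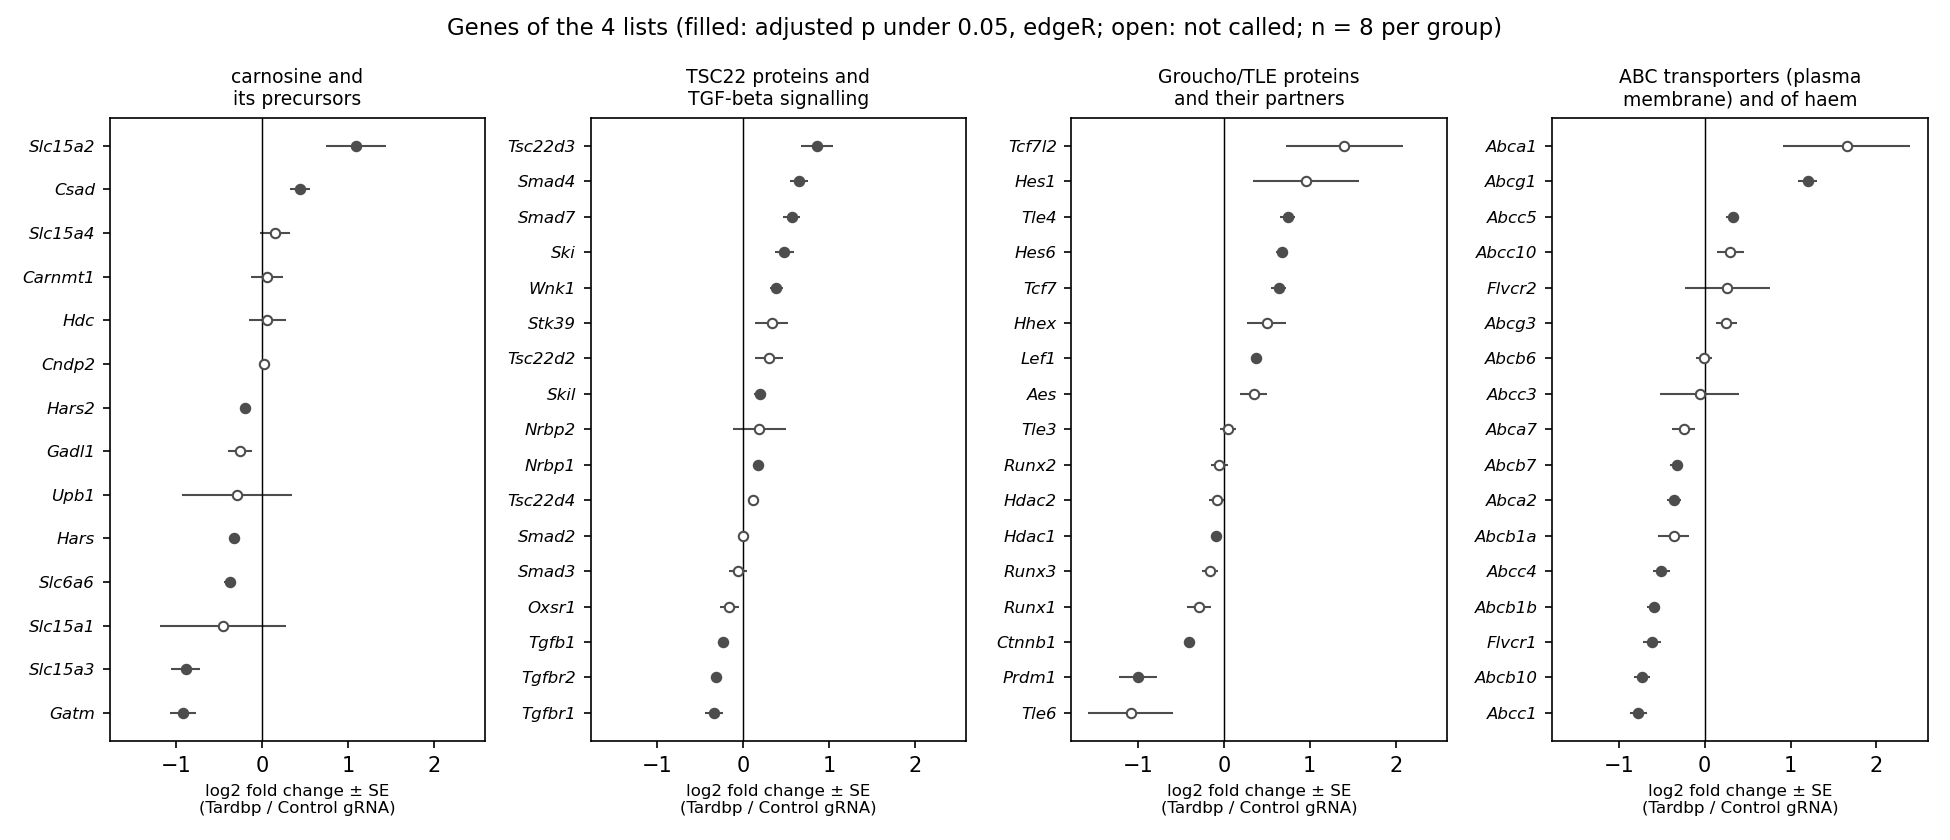
Log2 fold change of Tardbp gRNA over Control gRNA with its SE for the tested genes of the 4 lists, without Carns1, Tsc22d1, Tle1 and Abcg2. Filled points passed adjusted p under 0.05 (edgeR, n = 8 per group): 7 and 9 points are filled in the carnosine and transporter lists, where 5 and 7 lie below 0, and 10 and 7 in the TGF-beta and Groucho lists, where 3 and 3 do.

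The genes whose level followed each of the 4 most closely across the 16 libraries, once group means were removed, were found among the 8976 genes whose log2 CPM averaged 3 or more. Metap1d (r = 0.75), Hivep3 (r = 0.68) and Casp4 (r = 0.68) were nearest to Carns1, and Slfn2 (r = 0.90), Trbj2-1 (r = 0.90) and Sesn1 (r = 0.89) to Tsc22d1. Nmrk1 (r = 0.88), Hook2 (r = 0.83) and Pgs1 (r = 0.80) were nearest to Tle1, and Ppil1 (r = 0.85), Psph (r = 0.82) and Hprt (r = 0.81) to Abcg2. These correlations describe libraries that differ in depth, and they are the highest of many.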

How the data were processed

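RNA was sequenced in 16 libraries, 8 in each group. The submitters' processing notes name HISAT2 2.1.0, SAMtools 1.9, StringTie 2.1.0, DESeq2 1.30.1 and the mouse genome mm10, whose coordinates are those of GRCm38. The authors deposited estimated counts per gene and per transcript, which are model estimates, so a 0 for a transcript is an estimate too. The authors also deposited Psi as a fraction per node and group. Columns of the authors' own comparison (Psi difference and probability) were not used. A deposited annotation gave the count of read pairs, the RNA concentration and a letter for sex. Of each table of counts, 10 columns that match no sample here were left out. Lines that name no gene of GENCODE M21 (0.0836% to 0.132% of counts) were left out.

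Genes (16650 after filterByExpr) were fitted with the quasi-likelihood test of edgeR 4.0.16 (R 4.3.3) on TMM-scaled counts. Shares of transcripts were fitted with limma 3.58.1, robust eBayes. Both used Benjamini-Hochberg adjustment over all features, two-sided, without covariates. CPM were counts over the effective library size. Each fit was run on simulated data, with 200 changed features. For shares, transcript counts were drawn independently and with the same dispersion for all, unlike the wide ranges of share seen within a group here. That run therefore cannot show how well the share fit does on these data. The 4 genes and all lists were chosen with earlier results of these data known. Named were every transcript with a mean share of 0.05 or more, a set list of paralogs, which left out Abcg4, and the carnosine dipeptidases. Also named were the 4 called genes of each list with the widest change, neighbours within 5 kb and the 3 most similar genes. The letter for sex, RNA concentration, other scalings and filters and each library left out were tried as alternatives. A planned motif search over whole genes was not run, since no genome sequence was used here. Same-numbered libraries of the 2 groups correlated only weakly once group means were removed, and no label says what a number marks. The numbers were not used to pair them in the main fits.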

Additional observations from a re-analysis of the deposited data

Results flagged for a closer look

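Of 46 sets of 8 values tested, 11 held a library that stood apart from the rest of its group by Dixon's criterion. For normally distributed values, chance alone gives this in about 1 in 20 sets. Many of these sets are shares with several zeros, for which that rate does not hold, so nothing is read from the count of 11. Several sets share counts, since shares of 1 gene sum to 1. Control gRNA library 4 stood apart 4 times: it had the lowest share of Carns1-201 at 0.633 and the highest of Carns1-204 at 0.362, of Tle1-203 at 0.413 and of Tle1-209 at 0.0278. In the first 3 it lay nearer to the Tardbp gRNA mean than any other Control gRNA library. Tardbp gRNA library 4 was the only one of its group with Carns1-201, at 0.247. Tardbp gRNA library 5 had the highest share of Tsc22d1-204, at 0.309, and of Tle1-209, at 0.379. Tardbp gRNA library 1 had the highest share of Tsc22d1-213, at 0.210. Tardbp gRNA library 3 had the highest Tle1 level, at 3.23 CPM, and the lowest Tardbp level, at 110 CPM. Tardbp gRNA library 6 had the highest Carns1 level, at 7.80 CPM. Why these libraries stood apart was not tested.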

How the results depend on the processing

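The share differences of Carns1-201, Tsc22d1-201, Tle1-203 and Abcg2-202 kept their direction and moved by less than 1 SD under the alternatives examined for them. These were shares per annotated length, genes under 20 counts missing, pooled counts, libraries 4 to 8 and each library left out. For these 4 transcripts the fits with RNA concentration, the letter for sex or the replicate number were not examined. With each library left out in turn the share differences ranged from -0.928 to -0.876, 0.625 to 0.674, 0.602 to 0.705 and -0.632 to -0.514. The coding share differences ranged from -0.895 to -0.843 for Carns1, 0.0853 to 0.113 for Tsc22d1, 0.0188 to 0.0534 for Tle1 and -0.0362 to -0.00646 for Abcg2, and per annotated length they were 0.232 for Tsc22d1 and -0.00923 for Tle1. The correlations with Tardbp level ranged from -0.33 to 0.15 for Carns1-204, -0.23 to 0.00334 for Tsc22d1-201, -0.26 to 0.67 for Tle1-203 and -0.35 to 0.16 for Abcg2-201, and that of Tle1-203 was -0.22 without the 2 libraries farthest from the median.

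Genes called numbered 7783, and 7265 to 7734 with a library left out. Transcripts called by share numbered 206, and 159 to 224 with a library left out, 77 at adjusted p under 0.01, 364 per annotated length and 89 in libraries 4 to 8. With log2 RNA concentration in the fit the counts were 2697 genes and 10 transcripts, and in the lists 0 carnosine genes rose and 3 fell, 2 TGF-beta genes rose and 1 fell, 1 Groucho gene fell and 4 transporter genes fell. RNA concentration does not overlap between the groups. At adjusted p under 0.01, 1 carnosine gene rose. List counts with a library left out ranged over 2 to 2 higher and 5 to 6 lower (carnosine), 6 to 8 and 3 to 3 (TGF-beta), 4 to 5 and 3 to 4 (Groucho) and 2 to 3 and 7 to 8 (transporters). No transcript of the paralogs or of Cndp2 was called by share in any setting. Slc15a2 was at -0.23 with RNA concentration. With a library left out, Tle3 ranged from -0.0167 to 0.0970 and Cndp2 from -0.0277 to 0.0303, log2.

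With the replicate number as a block, 7645 genes and 100 transcripts were called, and 5 Groucho genes fell. Same-numbered libraries correlated at -0.0048 to 0.160, over 0.1 in 2 of 8 pairs, and 2 of 8 Control gRNA libraries correlated best with their own number. Weak correlations of this kind cannot tell whether a number marks a shared animal or batch.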
